A study of Mus musculus with 21 samples.

Results

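The members of the gene set described here are 32 of the 18762 in the deposited table, and together they cover the path of a fatty acid from the blood vessel to the mitochondrial respiratory chain. They were picked by symbol from textbook biochemistry, with earlier results of these data known, and all 32 passed the filter of at least 1 FPKM in at least 3 libraries. Of these, 4 serve uptake and binding (Cd36, Lpl, Fabp3, Slc27a1), 2 the lipid droplet (Pnpla2, Plin5) and 2 the activation of acids to coenzyme A (CoA) esters (Acsl1, Acss1). The thioesterases Acot2 and Acot13 cleave such esters, 6 genes belong to the carnitine shuttle and its control (Cpt1a, Cpt1b, Cpt2, Slc25a20, Crat, Mlycd), and 12 to the β-oxidation cycle. The remaining 4 are the electron transfer genes Etfa, Etfb and Etfdh and the nuclear receptor gene Ppara.

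RNA came from the heart apex of ICR mice whose ventricular tip had been removed at 1 day of age (apical resection) and whose hearts were taken on postnatal day 7. Each of 7 groups had 3 libraries. In 1 group the mice were given isoproterenol, which stimulates β-adrenergic receptors, and in 5 groups an anti-arrhythmic drug. These were amiodarone, a blocker of potassium currents among others, metoprolol or propranolol, both of which block β-receptors, lidocaine, which blocks sodium channels, and ivabradine, an inhibitor of the pacemaker current. Drugs were given subcutaneously for 7 days in a row, and no label states a dose. Control animals have the resection alone as their treatment label and NS in their titles, which no label spells out. What they were injected with, if anything, is not stated. All groups therefore share the resection, and no group without it is described here. Whether each library is a different mouse is not stated, and the p-values therefore measure spread between libraries only.

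The fatty acids that a cardiomyocyte burns are taken up from outside, in part freed from lipoproteins, or come from its own lipid droplets. They are activated to acyl-CoA and cross the inner mitochondrial membrane as carnitine esters. Inside, β-oxidation shortens them in repeated rounds of the same reactions, and the electrons pass through the electron transfer flavoprotein to the respiratory chain. The mouse heart moves from glucose and lactate towards fatty acids as its main fuel in the days after birth, the same days in which it loses the capacity to regenerate. Against that background, the comparisons ask whether a drug given during healing left the genes of this fuel pathway higher or lower.

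The deposited unit is FPKM, in which fragments are divided by transcript length and by the library's mapped total. Read counts were not used, the absolute depth is not known, and intervals for counting error were not computed. Sums per library ran from 496304 to 552905 FPKM with the drugs and from 537663 to 551292 FPKM in controls. Steps in the values of 55 low genes put the relative depth at 0.986 to 1.03 in the drug libraries and 0.955 to 0.968 in the controls. Median-of-ratios factors were 0.965 to 1.02 in the drug libraries and 1.05 to 1.08 in the controls, so the controls stood apart in both. Across genes, replicate libraries had Pearson's r between 0.994 and 0.998. Cardiomyocyte identity was plain, with 12 listed markers summing to 51200 to 54350 FPKM with isoproterenol, 49900 to 58090 FPKM with the anti-arrhythmic drugs and 50630 to 54580 FPKM in controls. Brown fat is another tissue rich in these genes. Its uncoupling protein gene Ucp1 stayed at or below 0.10 FPKM, and Adipoq of fat cells at or below 1.22 FPKM, in all 21 libraries. The 8 listed fat markers summed to 34.1 to 42.2 FPKM with isoproterenol, 28.4 to 41.3 FPKM with the anti-arrhythmic drugs and 33.7 to 35.6 FPKM in controls, nearly all of it Cidea, while Lep and Elovl3 were under 0.1 FPKM everywhere. In 4 libraries a marker of another tissue stood high, namely Mylpf of fast skeletal muscle at 62.7 FPKM in control 3, the atrial Myl7 at 176 FPKM in isoproterenol 3, the lung gene Sftpc at 222 FPKM in amiodarone 2 and the liver gene Alb at 10.8 FPKM in propranolol 1. Counts without these 4 are given beside the main counts. The 4 do not cover every such signal, since lung markers summed to as much as 12.6 FPKM in a lidocaine library that was kept.

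As a description with no test, the mean log2 level of the fatty acid genes was higher in each drug group than in controls, while their sum was not higher with every drug. Their sum made up 2.84% to 2.88% of all FPKM in the isoproterenol libraries and 2.47% to 2.69% in the controls. With propranolol it made up 2.54% to 2.55%, inside the control range. The mean of log2(FPKM + 1) over the 32 genes was 7.68, 7.72 and 7.71 in the isoproterenol libraries and 7.55, 7.42 and 7.41 in the control libraries. All isoproterenol libraries lay above all controls, and control 1 lay well above the other controls. Over the 15 anti-arrhythmic libraries the same mean ran from 7.52 in propranolol 2 to 7.67 in lidocaine 2, so that control 1 fell inside their range. The tissue was bulk, so fewer cells of a type and less RNA per cell cannot be told apart.

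**Figure D1:**
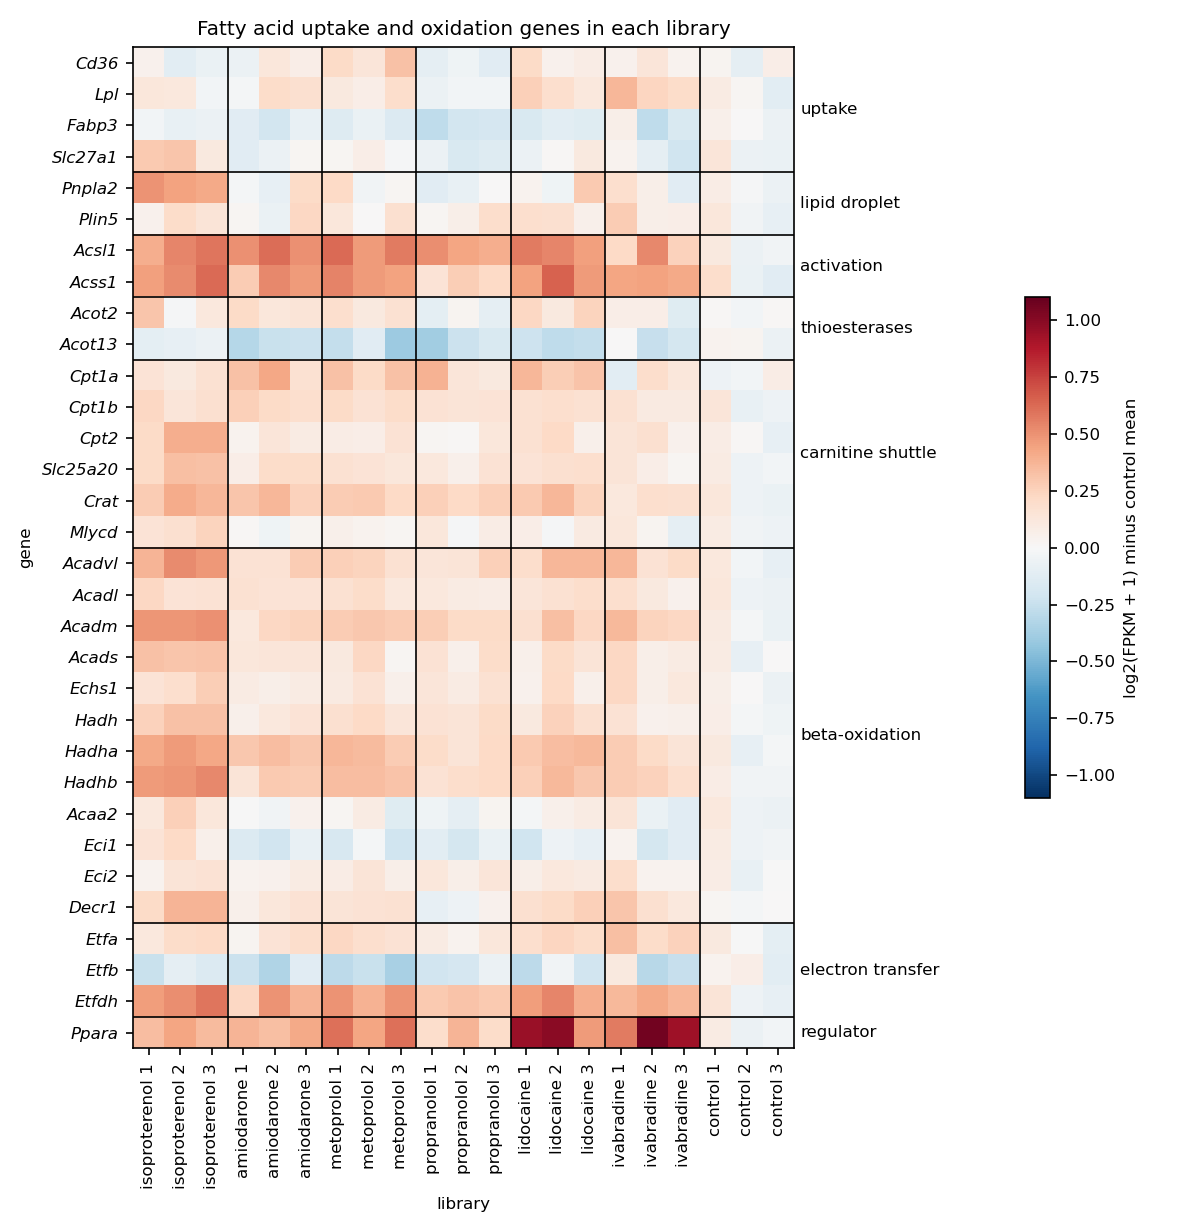
Each row is a gene and each column a library, with colour giving log2(FPKM + 1) minus the mean of the 3 controls, and rows grouped by step. Activation genes, Etfdh and Ppara are red across the drug columns, β-oxidation genes are deepest red in the isoproterenol columns, and Acot13 and Etfb are mostly blue.

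The members called in each comparison were mostly higher, whereas calls over all genes were mostly lower. With isoproterenol 21 members were higher and 0 lower than in controls (limma, Benjamini-Hochberg adjusted over all genes, threshold 0.05), and over all tested genes 8.38% were called higher and 25.8% lower. At an unadjusted p under 0.05 limma also found 0 members lower with isoproterenol or ivabradine. Amiodarone gave 13 higher and 1 lower (8.47% and 20.6% of all genes), and metoprolol 17 and 2 (9.48% and 22.0%). Propranolol gave 8 and 2 (6.98% and 19.8%), lidocaine 18 and 1 (10.6% and 26.6%), and ivabradine 12 and 0 (7.91% and 19.1%). These comparisons share the 3 control libraries. The median log2 change of the members was 0.22 with isoproterenol, 0.12 with amiodarone, 0.16 with metoprolol, 0.10 with propranolol, 0.17 with lidocaine and 0.12 with ivabradine. Over all tested genes the medians ran from -0.10 to -0.08, so the members stood above the general level of each comparison by 0.18 to 0.31. Of 9 macrophage markers 8 were lower with isoproterenol, 3 with amiodarone and 6 with each other drug. Of 5 tested fast skeletal muscle markers 5 were lower with isoproterenol and lidocaine, 4 with ivabradine, 3 with propranolol, 1 with metoprolol and 0 with amiodarone, and the 8 listed ones summed to 7.00 to 8.93 FPKM with isoproterenol, 4.77 to 84.0 FPKM with the anti-arrhythmic drugs and 23.4 to 168 FPKM in controls. Of 7 endothelial markers 5 were lower with ivabradine and 3 with each other drug, and of 7 fibroblast markers 1 to 3 were lower. Atrial markers, 5 in all, had 1 higher with isoproterenol and 1 lower with each other drug. The part of these cell types in the counts was not tested.

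These counts depend on how libraries are put on one scale. Rescaling by medians of ratios brought the all-gene median to between -0.01 and 0.01, a shift of up to 0.10, and gave 28, 19, 23, 18, 24 and 20 members higher and 0 lower in the same order of drugs. The split over all genes then became 17.3% higher and 12.0% lower with isoproterenol, 15.0% and 8.31% with amiodarone, 16.2% and 9.36% with metoprolol, 14.5% and 8.89% with propranolol, 18.9% and 12.8% with lidocaine, and 14.6% and 9.77% with ivabradine. The mean of the cardiomyocyte markers was itself higher with the drugs, at 10.8 to 10.9 log2(FPKM + 1) in the drug groups and 10.7 in controls. Of the 12 markers 4 to 6 were called higher with each drug, 1 was called lower with lidocaine, and the rest were not called. Single markers differed widely, with log2 changes from -0.23 to 0.65 with isoproterenol, and the summed FPKM of the markers overlapped the controls. Centring each library on these markers left 14, 6, 8, 2, 9 and 5 members higher and 4, 5, 4, 10, 4 and 6 lower, and turned the members' median negative with amiodarone, propranolol and ivabradine. Over all genes centring called 3.02% higher and 52.2% lower with isoproterenol, 3.10% and 44.4% with amiodarone, 3.47% and 42.0% with metoprolol, 2.06% and 51.6% with propranolol, 4.32% and 47.3% with lidocaine, and 2.53% and 48.0% with ivabradine. Relative to these markers the members' median was above 0 with isoproterenol, metoprolol and lidocaine, at 0.07, 0.04 and 0.05. Without the 4 libraries the counts higher were 14, 5, 10, 2, 11 and 9 in that order. For fits with libraries left out, here and below, the share of all genes called was not computed. A drop particular to the members therefore cannot be told from a general one.

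**Figure D2:**
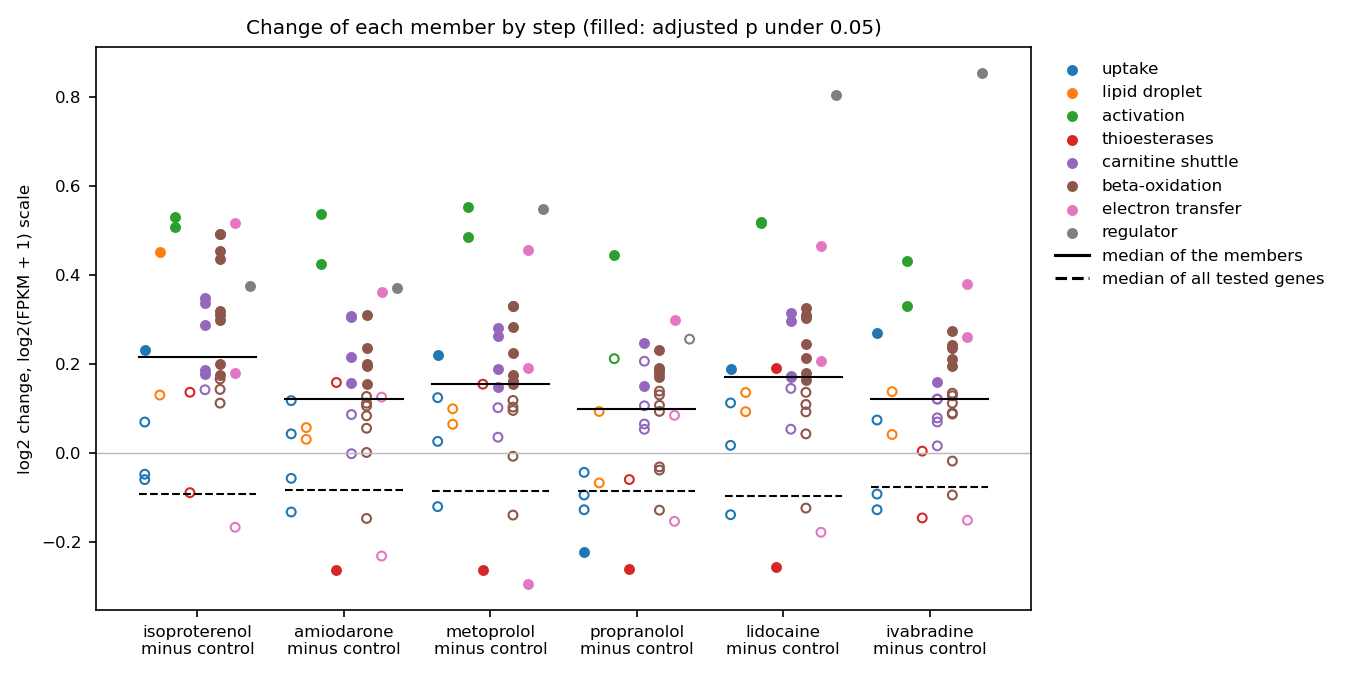
Points are the 32 members' log2 changes against control on the log2(FPKM + 1) scale, coloured by step, filled where the adjusted p was under 0.05. The solid line is the members' median and the dashed line the median of all tested genes, which lies lower in each of the 6 comparisons.

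With isoproterenol, genes from the lipid droplet through to the respiratory chain were called higher, whereas 3 of the 4 uptake genes and both thioesterases were not called. After rescaling 28 members were higher and 4 not called, so which members stay uncalled depends on the scale. The calls below are those of the main fit. Higher were 9 of 12 β-oxidation genes, 5 of 6 in the carnitine shuttle, both activation genes, 2 of 3 in electron transfer, Pnpla2, Slc27a1 and Ppara. Not called were Cd36 (log2 change -0.05 ± 0.07), the fatty acid translocase of the cell surface, Lpl (0.07 ± 0.07), the lipase that frees acids from lipoproteins, and Fabp3 (-0.06 ± 0.07), which carries them through the cytosol. Slc27a1, a transporter of long-chain acids, stood at 75.6, 76.8 and 66.6 FPKM with isoproterenol and 68.1, 59.2 and 58.8 FPKM in controls (0.23 ± 0.07, adjusted p = 0.02). Isoproterenol 3 lay below control 1, so the groups overlapped. In 14 of the 21 higher members the call held in every alternative fit (other pseudocount, filters, scalings, covariates and left-out libraries), and Slc27a1, Cpt1b, Mlycd, Acadl, Echs1, Etfa and Ppara lost it in at least 1, each of them without the 4 libraries and centred on the cardiomyocyte markers.

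Pnpla2 encodes adipose triglyceride lipase, which makes the first cut in stored triglyceride. It stood at 147, 142 and 139 FPKM with isoproterenol and 109.7, 103 and 99.2 FPKM in controls (0.45 ± 0.09, adjusted p = 0.0015). All 3 isoproterenol libraries were far above all controls, and the 15 anti-arrhythmic libraries, at 95.1 to 127 FPKM (median 104), also stayed below them. Plin5, the droplet coat protein that tethers droplets to mitochondria, was at 63.0 ± 3.49 FPKM with isoproterenol and 57.5 ± 4.70 FPKM in controls (mean ± SD, n = 3 each) and was not called.

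Within the β-oxidation cycle, Hadhb, Acadm, Acadvl and Hadha had the largest changes with isoproterenol. Hadhb, the thiolase subunit of the mitochondrial trifunctional protein, had 711, 717 and 740.2 FPKM with isoproterenol and 542, 498 and 499.9 FPKM in controls (0.49 ± 0.05, adjusted p = 1e-05). Its partner subunit Hadha, which carries the hydratase and dehydrogenase activities, had 555, 572 and 555 FPKM with isoproterenol and 446, 389 and 408 FPKM in controls (0.44 ± 0.05, adjusted p = 2.5e-05). In both genes the lowest isoproterenol library exceeded the highest control by a wide margin. Acadm, the medium-chain acyl-CoA dehydrogenase, had 392, 391 and 396 FPKM with isoproterenol and 298, 275 and 266 FPKM in controls (0.49 ± 0.05, adjusted p = 1.5e-05). Its isoproterenol libraries were nearly equal, and again none overlapped a control.

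The other acyl-CoA dehydrogenases changed to different extents. Acadvl, for very long chains, averaged 616 ± 31.2 FPKM with isoproterenol and 449 ± 33.0 FPKM in controls (0.46 ± 0.07, adjusted p = 0.00013). Acadl, for long chains, changed less (0.18 ± 0.05, adjusted p = 0.015), and Acads, for short chains, lay between (0.31 ± 0.06, adjusted p = 0.00097). Hadh, the short-chain hydroxyacyl-CoA dehydrogenase, and Echs1, the short-chain hydratase, were higher by 0.30 ± 0.05 and 0.20 ± 0.06. Among the genes for unsaturated acids, the reductase Decr1 was higher (0.32 ± 0.05, adjusted p = 0.00039), while the isomerases Eci1 (0.14 ± 0.07) and Eci2 (0.11 ± 0.05) were not called. Acaa2, the thiolase for medium chains, was the last of the 12 not called, at 0.17 ± 0.07.

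In the carnitine shuttle, Cpt2, which remakes acyl-CoA inside the mitochondrion, changed by 0.34 ± 0.06, adjusted p = 0.00061, and the exchanger Slc25a20 by 0.29 ± 0.05, adjusted p = 0.00054. Crat, the acetyltransferase that buffers acetyl-CoA, had 242, 266 and 257 FPKM with isoproterenol and 218, 192 and 190.2 FPKM in controls (0.35 ± 0.05, adjusted p = 0.00018). Its isoproterenol libraries were all above the controls. Cpt1b, the muscle form of the enzyme at the outer membrane, and Mlycd, which removes the CPT1 inhibitor malonyl-CoA, changed less, by 0.18 ± 0.05 and 0.19 ± 0.06, and the liver form Cpt1a was not called (0.14 ± 0.08).

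Cpt1b was the dominant form throughout, and its lead over Cpt1a was not shown to change. The log2 difference of the 2 forms was 3.08 ± 0.04 with isoproterenol and 3.05 ± 0.17 in controls (mean ± SD, n = 3 each). With lidocaine it was 2.90 ± 0.06, the lowest of the drug groups, and with ivabradine 3.10 ± 0.20, the highest. A two-sided exact permutation test of each drug against control gave p of 0.20 to 0.80 (0.80 for each after Benjamini-Hochberg adjustment over 6 tests), and the smallest p that 3 against 3 can give is 0.10. With each drug but lidocaine the sign of the difference turned when control 1 or control 3 was left out.

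At the end of the path, Etfdh, which passes electrons from the flavoprotein to ubiquinone, had 227, 236 and 249.6 FPKM with isoproterenol and 182, 159 and 155 FPKM in controls (0.52 ± 0.07, adjusted p = 3.9e-05). Etfa, one subunit of the flavoprotein itself, was higher by 0.18 ± 0.06, adjusted p = 0.022, while the other subunit, Etfb, was not called at -0.17 ± 0.09. The 2 subunits of 1 protein thus had estimates of opposite sign, and centred on the cardiomyocyte markers Etfb was called lower.

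**Figure D3:**
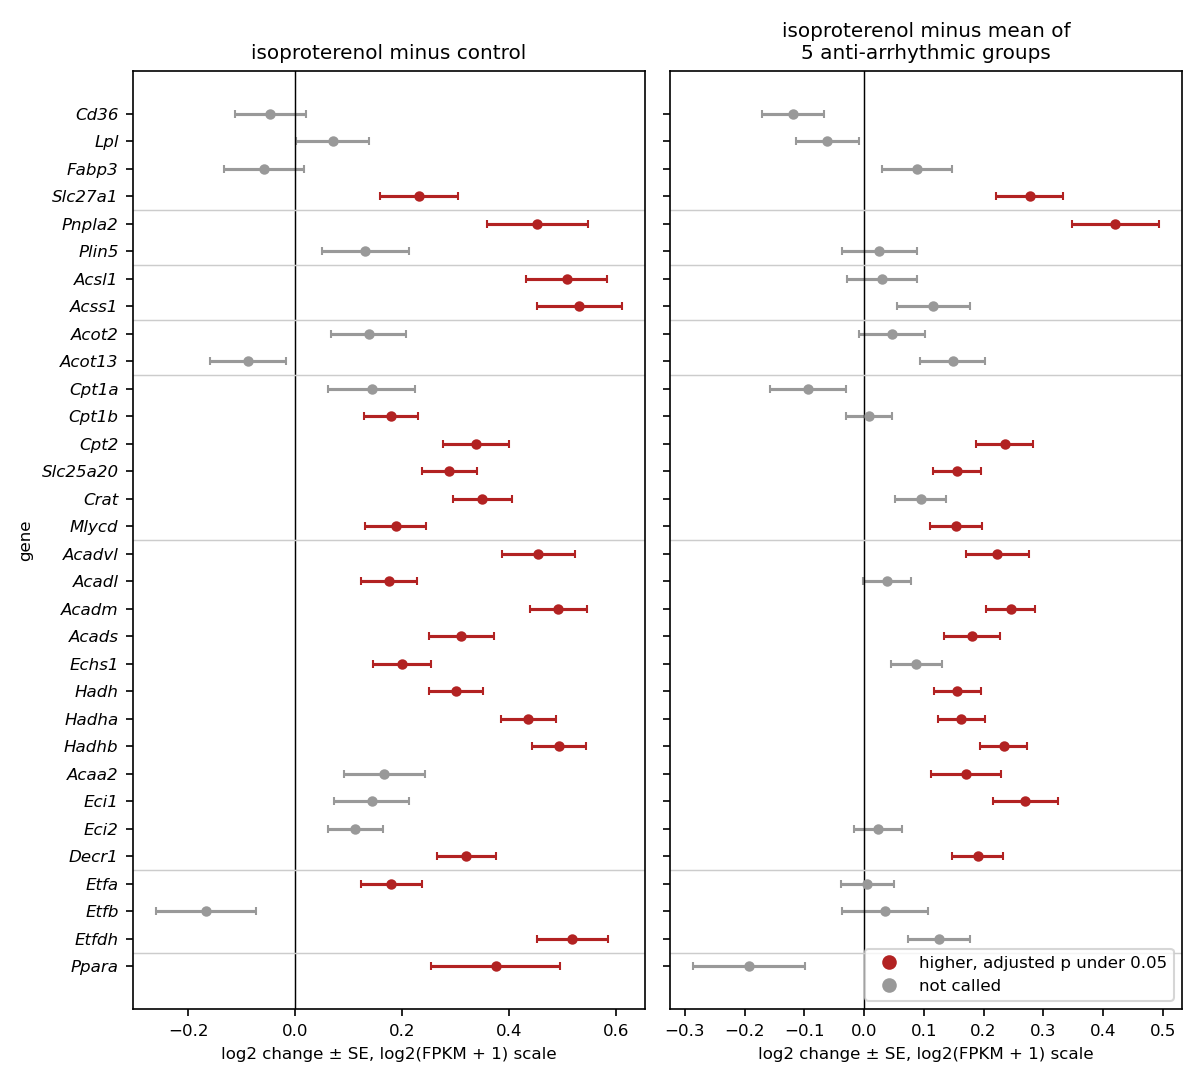
Log2 changes ± SE of the 32 members on the log2(FPKM + 1) scale, with isoproterenol minus control on the left and isoproterenol minus the mean of the 5 anti-arrhythmic groups on the right, red where called. Red points on the right are concentrated in β-oxidation, while Acsl1 and Acss1 are red on the left only.

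Hadha and Hadhb, which moved together, share their upstream DNA. In RefSeq on GRCm38.p6 they start head to head on chromosome 5, Hadha at base 30154980 on the minus strand and Hadhb at base 30155253 on the plus strand, with 272 bases between. The files name the older build mm9, so no coordinate was carried over and windows were matched by gene, which found 26 of the 32 members in 30 windows of 250 bases before to 50 after a start. The stretches of 250 bases before the start are shown for Hadhb, whose window covers most of that shared interval, and for Acadm, Etfdh and Ppara, whose windows hold letters of 2 regulators known in this pathway. Capitals mark GGGCGG (a GC box), AAGGTCA (the element of estrogen-related receptors) and the element of nuclear respiratory factor NRF1 (GCGCA, any base, GCGC), on either strand.
Hadhb, chr5:30155003-30155252, plus strand: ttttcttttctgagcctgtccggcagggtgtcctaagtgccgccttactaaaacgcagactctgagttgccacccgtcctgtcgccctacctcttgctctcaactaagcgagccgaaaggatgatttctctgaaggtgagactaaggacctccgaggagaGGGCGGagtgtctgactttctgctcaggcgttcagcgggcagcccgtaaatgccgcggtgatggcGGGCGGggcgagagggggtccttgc
Acadm, chr3:153944644-153944893, minus strand: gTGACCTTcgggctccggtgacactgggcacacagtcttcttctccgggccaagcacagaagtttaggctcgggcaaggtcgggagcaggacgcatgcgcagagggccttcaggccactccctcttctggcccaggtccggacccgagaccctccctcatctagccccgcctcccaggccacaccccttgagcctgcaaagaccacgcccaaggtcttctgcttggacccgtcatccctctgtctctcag
Etfdh, chr3:79628768-79629017, minus strand: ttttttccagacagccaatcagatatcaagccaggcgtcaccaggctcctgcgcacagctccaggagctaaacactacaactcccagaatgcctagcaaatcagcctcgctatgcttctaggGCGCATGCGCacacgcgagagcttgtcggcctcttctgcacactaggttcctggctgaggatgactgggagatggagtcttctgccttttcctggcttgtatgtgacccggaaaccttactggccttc
Ppara, chr15:85735526-85735775, plus strand: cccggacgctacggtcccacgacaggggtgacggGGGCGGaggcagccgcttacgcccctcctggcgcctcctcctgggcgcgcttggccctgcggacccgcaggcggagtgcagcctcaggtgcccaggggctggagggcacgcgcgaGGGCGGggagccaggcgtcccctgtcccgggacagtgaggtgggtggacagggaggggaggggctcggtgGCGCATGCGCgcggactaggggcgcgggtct
The AAGGTCA letters were present in 1 of the 26 members, Acadm (there as the reverse complement), and in 4.72% of all 32851 windows. The NRF1 letters were present in 3 members, Etfb, Etfdh and Ppara, and in 4.60% of all windows. GGGCGG stood in 20 of 26 members, or 22 of their 30 windows, and in 35.7% of all windows. The shorter receptor site AGGTCA, which lies within AAGGTCA, stood in 6 members, or 7 of the 30 windows, and in 16.3% of all windows. The direct repeat of AGGTCA with any single base between the copies, the form bound by PPARα with its partner RXR, stood in 0 members and 0.0396% of all windows, and the full cyclic AMP element TGACGTCA in 0 members and 1.79%. TGACG, which lies within that element, stood in 6 members and 20.8% of all windows. These are matches of letters in a short window and say nothing of binding.

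Set against the mean of the 5 anti-arrhythmic groups, fewer members were higher with isoproterenol than against controls, most of them in β-oxidation. A gene can be higher here because the anti-arrhythmic groups were low, and Eci1 and Acaa2 were not called against controls. The mean of the control group does not enter this contrast, though the control libraries share in the estimate of spread. Of the 32 members 14 were higher and 0 lower (1 lower at an unadjusted p under 0.05 by limma), while over all genes 9.51% were called higher and 13.3% lower. The members' median change was 0.12 and that of all genes -0.01. The β-oxidation cycle supplied 9 of the 14 (Acadvl, Acadm, Acads, Hadh, Hadha, Hadhb, Acaa2, Eci1, Decr1), the shuttle 3 (Cpt2, Slc25a20, Mlycd), and the others were Pnpla2 and Slc27a1. None of the activation, thioesterase or electron transfer genes was among them.

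Pnpla2 had the largest of these changes (0.42 ± 0.07, adjusted p = 0.00053). Slc27a1 (0.28 ± 0.06, adjusted p = 0.0018) was at or above the top of the 15 anti-arrhythmic libraries, with isoproterenol 3 level with lidocaine 3, the highest of them. They ran at 53.1 to 66.6 FPKM (median 59.2). Eci1, which was not called against controls, was higher here by 0.27 ± 0.05, adjusted p = 0.0018, with 286 ± 15.6 FPKM in the isoproterenol libraries (mean ± SD, n = 3) and 221 to 266 FPKM (median 236) in the anti-arrhythmic ones. Every isoproterenol library exceeded the highest of these, while controls, at 259 ± 15.1 FPKM, overlapped the isoproterenol libraries. Acadm (0.25 ± 0.04, adjusted p = 0.00043) and Hadhb (0.23 ± 0.04, adjusted p = 0.00043) also stood clear of all anti-arrhythmic libraries, which ran at 303 to 357 FPKM (median 331) for Acadm and 564 to 656 FPKM (median 622) for Hadhb. Cpt2 followed with 0.24 ± 0.05, adjusted p = 0.0018.

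The count of 14 was 15 after rescaling (11.7% of all genes higher and 11.5% lower) and 14 centred on the cardiomyocyte markers (6.31% and 11.2%), and it was 10 without isoproterenol 3. Without the 4 libraries it was 6, namely Slc27a1, Pnpla2, Cpt2, Acadm, Hadhb and Eci1, which are also the members that kept the call in every alternative fit. Acaa2 was the least steady, with the call lost in 15 of them. Without lidocaine 3, 1 member was called lower. Macrophage genes moved in the same contrast, with 6 of 9 lower. Their summed level was 91.9 to 198 FPKM with isoproterenol, 137 to 430 FPKM with the anti-arrhythmic drugs and 248 to 629 FPKM in controls. Atrial markers moved too, with 2 of 5 higher. They summed to 735 to 1310 FPKM with isoproterenol, 276 to 1244 FPKM with the anti-arrhythmic drugs and 563 to 1132 FPKM in controls. The part of macrophage and atrial genes in the result was not tested.

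Of the 2 activation genes, Acsl1 was higher with all 6 drugs and Acss1 with 5. Acsl1 encodes the main long-chain acyl-CoA synthetase of the heart and had 237, 259 and 269 FPKM with isoproterenol. It had 254, 274 and 254 FPKM with amiodarone, 275, 247 and 267 FPKM with metoprolol and 255, 242 and 236 FPKM with propranolol. The values were 267, 259.5 and 244 FPKM with lidocaine, 208, 258 and 213 FPKM with ivabradine and 192, 171 and 174 FPKM in controls. All 18 drug libraries lay above all 3 controls, and ivabradine 1 and 3 were nearest to them. The changes were 0.51 ± 0.08 with isoproterenol, 0.54 ± 0.08 with amiodarone, 0.55 ± 0.08 with metoprolol, 0.45 ± 0.08 with propranolol, 0.52 ± 0.08 with lidocaine and 0.33 ± 0.08 with ivabradine (limma adjusted p between 9e-05 and 0.004). With ivabradine the call was lost in 2 alternative fits, with adjusted p of 0.051 and 0.055.

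Acss1, which activates acetate in the mitochondrion, averaged 46.4 ± 2.82 FPKM with isoproterenol, 37.0 ± 1.61 FPKM with propranolol and 31.9 ± 4.04 FPKM in controls (mean ± SD, n = 3 each). It was called higher with each drug but propranolol (0.21 ± 0.08, adjusted p = 0.055). Between isoproterenol and the anti-arrhythmic groups no difference beyond the spread was found in Acsl1 (0.03 ± 0.06, adjusted p = 0.75) or Acss1 (0.12 ± 0.06, adjusted p = 0.19). A value that misses the threshold does not show that the groups were equal.

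Etfdh was also above the controls in all 18 drug libraries. It had 194, 233 and 214 FPKM with amiodarone, 234, 216 and 233 FPKM with metoprolol and 203, 206 and 202 FPKM with propranolol. With lidocaine it had 228, 241 and 218 FPKM and with ivabradine 211, 222 and 214 FPKM, against the control values above. Amiodarone 1 was the lowest drug library and the nearest to control 1. The changes were 0.36 ± 0.07, 0.46 ± 0.07, 0.30 ± 0.07, 0.47 ± 0.07 and 0.38 ± 0.07 in that order, each called (adjusted p between 8.2e-05 and 0.0041). Acadvl, Acadm, Hadha, Hadhb and Ppara were the other members for which no drug library fell to the level of a control. This makes 7 of 32, while 3.23% of all tested genes had every drug library above every control.

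**Figure D4:**
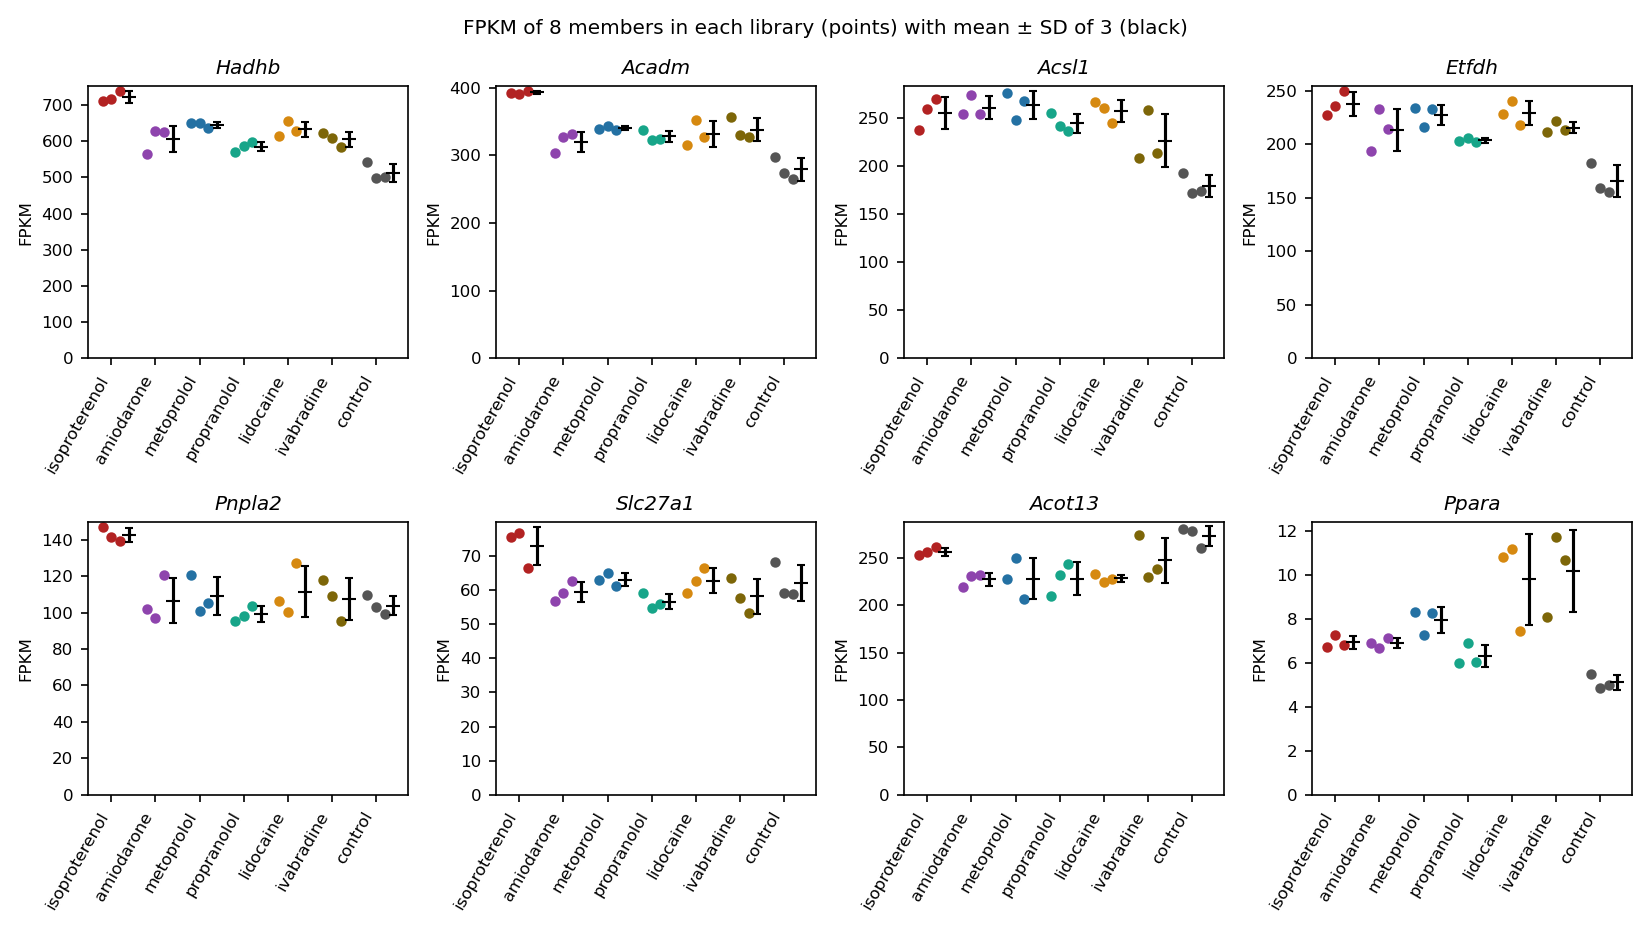
Points are single libraries in FPKM for 8 members, with black marks for mean ± SD of 3, and drug groups to the left of control. Isoproterenol libraries stand alone at the top for Hadhb, Acadm and Pnpla2, all drug groups lie above control for Acsl1 and Etfdh, lidocaine and ivabradine spread widest for Ppara, and most drug libraries lie below control for Acot13.

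With amiodarone the lipid droplet and uptake genes were not called, while 5 β-oxidation genes, 4 of the shuttle, both activation genes, Etfdh and Ppara were higher. Hadha was at 508, 524 and 509.8 FPKM (0.31 ± 0.05, adjusted p = 0.00064) and Hadhb at 564, 628 and 624 FPKM (0.24 ± 0.05, adjusted p = 0.0032). Crat had 247, 258 and 238 FPKM (0.31 ± 0.05, adjusted p = 0.00096), all 3 above the controls. Cpt1a was called higher (0.31 ± 0.08, adjusted p = 0.011) and Cpt2 was not called (0.09 ± 0.06). Of the 14 called members 5 kept the call in every alternative fit (Acsl1, Acss1, Crat, Hadha and Etfdh). Without amiodarone 2 or without control 3 the count higher was 8, and without all 4 libraries 5.

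Metoprolol gave 17 higher members, of which Acsl1 had the largest change. Hadhb had 649.8, 649 and 636 FPKM (0.33 ± 0.05, adjusted p = 0.00032), a tight group above all controls. Cd36 was called (0.22 ± 0.07, adjusted p = 0.018), at 328 ± 22.3 FPKM with metoprolol and 281 ± 16.5 FPKM in controls (mean ± SD, n = 3 each). All 3 metoprolol libraries were above the controls, though the call was lost without metoprolol 3, without control 2 and centred on the cardiomyocyte markers (adjusted p = 0.28), and in the F test among the 5 anti-arrhythmic groups Cd36 did not pass (adjusted p = 0.13). Of the 19 called members 8 kept the call in every alternative fit (Acsl1, Acss1, Crat, Acadm, Hadha, Hadhb, Etfdh and Ppara). The count higher was 11 without metoprolol 1, 8 without control 2, 11 without control 3 and 10 without the 4 libraries.

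Propranolol, the other β-blocker, gave 8 higher members: Acsl1, Cpt1b, Crat, Acadm, Hadh, Hadha, Hadhb and Etfdh. Hadhb had 571, 588 and 597 FPKM (0.19 ± 0.05, adjusted p = 0.011), above all controls. Side by side, the change of Acadm was 0.28 ± 0.05 with metoprolol and 0.23 ± 0.05 with propranolol, that of Hadha 0.33 ± 0.05 and 0.19 ± 0.05, that of Etfdh 0.46 ± 0.07 and 0.30 ± 0.07, and that of Cd36 0.22 ± 0.07 and -0.09 ± 0.07. No dose is known for either drug and both were set against the same controls, so no comparison of the 2 is drawn. Acsl1 and Etfdh were the 2 of the 10 called members that kept the call in every alternative fit. The count higher was 4 without control 2 and 2 without the 4 libraries.

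Lidocaine gave 18 higher members, among them Lpl and, at the thioesterase step, Acot2 (0.19 ± 0.07, adjusted p = 0.041). Lpl averaged 259 ± 13.3 FPKM with lidocaine (0.19 ± 0.07, adjusted p = 0.038), 274 ± 16.6 FPKM with ivabradine (0.27 ± 0.07, adjusted p = 0.008) and 227 ± 16.2 FPKM in controls (mean ± SD, n = 3 each). The libraries of neither drug overlapped the controls, but with lidocaine the calls of Lpl and Acot2 were lost in 8 and 9 alternative fits. With ivabradine the Lpl call was lost in 2 (adjusted p of 0.058 and 0.12). Of the 19 called members with lidocaine 9 kept the call in every alternative fit (Acsl1, Acss1, Crat, Acadvl, Acadm, Hadha, Hadhb, Etfdh and Ppara).

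Ivabradine gave 12 higher members, 5 of them in β-oxidation, and of the shuttle Crat (0.16 ± 0.05, adjusted p = 0.038). Crat overlapped the controls and its call was lost in 7 alternative fits. Acss1, Acadm, Etfdh and Ppara were the 4 of 12 that kept the call in every one. Ivabradine 1 stood apart from its group, with Fabp3 at 7036 FPKM and 5551 and 5967 FPKM in the other 2, and Etfb at 846 FPKM and 633 and 655 FPKM. Without it, 3 members were called lower with ivabradine.

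Ppara encodes the nuclear receptor that turns on many of the genes above when fatty acids bind it. It was the least abundant member and the one with the largest change. It had 10.8, 11.2 and 7.43 FPKM with lidocaine and 8.10, 11.7 and 10.7 FPKM with ivabradine, against 5.51, 4.84 and 4.99 FPKM in controls. Both groups were above all controls, and in each a single library, lidocaine 3 and ivabradine 1, lay well under the others. The changes were 0.80 ± 0.12, adjusted p = 0.00013 for lidocaine and 0.86 ± 0.12, adjusted p = 0.00013 for ivabradine.

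With isoproterenol Ppara had 6.72, 7.27 and 6.79 FPKM (0.38 ± 0.12, adjusted p = 0.022), with amiodarone 6.90, 6.69 and 7.13 FPKM (0.37 ± 0.12, adjusted p = 0.028) and with metoprolol 8.32, 7.25 and 8.27 FPKM (0.55 ± 0.12, adjusted p = 0.0034). With propranolol it had 5.99, 6.90 and 6.03 FPKM and was not called (0.26 ± 0.12, adjusted p = 0.12). All these libraries were above the controls, some of them by little. The isoproterenol and amiodarone calls were lost in 6 and 7 alternative fits. Isoproterenol, with the most members called higher, did not have the highest Ppara, and against the anti-arrhythmic drugs its Ppara change was -0.19 ± 0.09, adjusted p = 0.15.

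Among the 5 anti-arrhythmic groups Ppara was also the only member that differed in the F test (adjusted p = 0.033, with 1.06% of all genes called). Leaving out any amiodarone or propranolol library, lidocaine 1 or 2, or ivabradine 2 or 3 ended that call, as did leaving out the 4 libraries, dropping the filter, the replicate block, the Y-linked covariate and fitting only the groups compared. Over all 7 groups 24 of 32 members differed (39.9% of all genes), led by Hadhb (adjusted p = 0.00012), Hadha (0.00019) and Acadm (2e-04), and the count was 11 without the 4 libraries. Not called were Fabp3, Plin5, Mlycd, Acadl, Echs1, Acaa2, Eci2 and Etfb.

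A few members went the other way. Acot13, a mitochondria-associated thioesterase, had 219.7, 230.5 and 232 FPKM with amiodarone, 227, 249.8 and 207 FPKM with metoprolol and 209, 232 and 243 FPKM with propranolol. It had 233, 225 and 228 FPKM with lidocaine, 274, 229 and 238 FPKM with ivabradine, 253, 256 and 261 FPKM with isoproterenol and 280.2, 278 and 261 FPKM in controls. Amiodarone, metoprolol, propranolol and lidocaine libraries were all below all controls, while isoproterenol 3 and ivabradine 1 reached into the control range. It was called lower with amiodarone (-0.26 ± 0.07, adjusted p = 0.012), metoprolol (-0.26 ± 0.07, adjusted p = 0.01), propranolol (-0.26 ± 0.07, adjusted p = 0.013) and lidocaine (-0.26 ± 0.07, adjusted p = 0.0094). After rescaling none of these 4 calls remained (adjusted p of 0.11 to 0.16), though the sign was kept. Without metoprolol 3 the metoprolol call was also lost, and without propranolol 1 that with propranolol.

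Etfb was called lower with metoprolol, at 643, 659.6 and 613 FPKM with metoprolol and 806, 824 and 723 FPKM in controls (-0.29 ± 0.09, adjusted p = 0.024). The groups did not overlap. Fabp3, by far the most abundant member per transcript length, was called lower with propranolol, at 5526, 5857 and 5913 FPKM with propranolol and 6982, 6757 and 6433 FPKM in controls (-0.22 ± 0.07, adjusted p = 0.036). These groups did not overlap either. Both calls were lost after rescaling, that of Fabp3 in 10 alternative fits in all and that of Etfb in 5, among them leaving out metoprolol 1, metoprolol 3, control 1 or control 2.

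Genes around the pathway gave a wider view of what moved with isoproterenol. Of 26 tested further mitochondrial fatty acid and acyl-CoA genes 11 were higher and 3 lower than in controls, of 11 tested peroxisomal genes 4 and 0, and of 17 tested genes of uptake and triglyceride handling 6 and 4, beside 8.38% and 25.8% of all genes. Of 11 regulators 2 were higher and 2 lower, and of 7 genes of fatty acid synthesis 1 was higher, the synthase Fasn (0.39 ± 0.10, adjusted p = 0.0054). The triglyceride genes that led were Dgat2, which adds the last acyl chain (0.75 ± 0.09, adjusted p = 1.9e-05), Gpam, which adds the first (0.72 ± 0.09, adjusted p = 3.7e-05), and the phosphatase Lpin1 (0.83 ± 0.12, adjusted p = 0.00012). Gpam and Lpin1 were also above all controls in the anti-arrhythmic libraries. These had 28.8 to 41.5 FPKM for Gpam and 12.7 to 21.4 FPKM for Lpin1, and the highest controls were 27.1 and 12.0 FPKM. Without the 4 libraries the counts higher and lower were 6 and 2 of the mitochondrial genes, 2 and 0 of the peroxisomal genes, 3 and 0 of the uptake and triglyceride genes, 2 and 0 of the regulators and 1 and 0 of the synthesis genes. Centred on the cardiomyocyte markers they were 4 and 5, 2 and 1, 3 and 6, 1 and 3, and 0 and 0 in that order, with the Fasn call lost (adjusted p = 0.07), and after rescaling 13 and 2, 9 and 0, 8 and 1, 4 and 0, and 4 and 0.

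Dgat2 had 96.2, 124 and 121 FPKM with isoproterenol, 69.1 to 91.5 FPKM (median 82.0) over the anti-arrhythmic libraries and 64.9, 69.3 and 66.4 FPKM in controls. All isoproterenol libraries were above all others, and the change against the anti-arrhythmic drugs was 0.48 ± 0.07, adjusted p = 8.1e-05. Ucp3, a mitochondrial carrier whose level follows fatty acid use in muscle, had 57.0, 55.7 and 60.9 FPKM with isoproterenol, 28.4 to 47.1 FPKM (median 36.7) with the anti-arrhythmic drugs and 35.0, 36.2 and 32.2 FPKM in controls. It too was highest in the isoproterenol libraries without overlap (0.62 ± 0.10, adjusted p = 0.00036 against the anti-arrhythmic drugs). In the same contrast the carnitine importer Slc22a5 (0.26 ± 0.05, adjusted p = 7e-04), the dehydrogenase Acad10 (0.36 ± 0.07, adjusted p = 0.002) and the hormone-sensitive lipase gene Lipe (0.35 ± 0.06, adjusted p = 0.00082) were higher. Acad10 had 2.58, 2.30 and 2.75 FPKM with isoproterenol and 2.61, 2.02 and 2.64 FPKM in controls, and Lipe 27.1, 24.0 and 25.2 FPKM with isoproterenol and 25.7, 23.6 and 24.1 FPKM in controls. Neither gene was called with isoproterenol against controls, and those groups overlapped. The anti-arrhythmic libraries had 1.38 to 2.18 FPKM (median 1.79) for Acad10, which overlapped the controls, and 15.5 to 22.8 FPKM (median 20.3) for Lipe, all below the controls. Counts there were 8 higher and 4 lower of the 26 mitochondrial genes, 4 and 0 of the 11 peroxisomal genes, and 5 and 1 of the 17 uptake and triglyceride genes, beside 9.51% and 13.3% of all genes. They were 5 and 1, 1 and 0, and 3 and 0 without the 4 libraries.

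Peroxisomes start the oxidation of chains too long for mitochondria. Their gene Hsd17b4 (0.30 ± 0.05, adjusted p = 0.00035), a bifunctional enzyme of that cycle, was higher with isoproterenol, as was Ehhadh (0.24 ± 0.07, adjusted p = 0.014), a call lost in 5 alternative fits. For Ehhadh all 18 drug libraries were above the controls, at 2.74 to 3.42 FPKM against at most 2.71 FPKM. Hsd17b4 was higher with the other 5 drugs too, by 0.25 ± 0.05 with amiodarone, 0.31 ± 0.05 with metoprolol, 0.24 ± 0.05 with propranolol, 0.27 ± 0.05 with lidocaine and 0.27 ± 0.05 with ivabradine, though centred on the cardiomyocyte markers the calls with amiodarone, propranolol and ivabradine were lost. Acsl5, a synthetase best known from gut and liver, was lower with isoproterenol (-0.41 ± 0.07, adjusted p = 0.00027), opposite to Acsl1, and Acad11 was higher (0.50 ± 0.08, adjusted p = 0.00017).

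Acacb makes malonyl-CoA at the outer mitochondrial membrane, the inhibitor of CPT1 that Mlycd removes. It had 52.8, 54.5 and 57.6 FPKM with isoproterenol and 33.7, 30.2 and 31.7 FPKM in controls (0.77 ± 0.08, adjusted p = 7.7e-06), and 40.2 to 53.6 FPKM (median 49.9) over the anti-arrhythmic libraries. All 18 drug libraries were above the controls. The changes were 0.60 ± 0.08 with amiodarone, 0.60 ± 0.08 with metoprolol, 0.55 ± 0.08 with propranolol, 0.67 ± 0.08 with lidocaine and 0.49 ± 0.08 with ivabradine, all called. With isoproterenol its change was larger than that of any of the 32 members.

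Among the regulators, Klf15 (0.57 ± 0.12, adjusted p = 0.0022), a factor that drives lipid genes in heart, and Rxra (0.24 ± 0.06, adjusted p = 0.006), the partner of PPARα, were higher with isoproterenol, the Rxra call being lost when centred on the cardiomyocyte markers (adjusted p = 0.28), and the coactivator Ppargc1b was lower (-0.28 ± 0.08, adjusted p = 0.014, lost in 4 alternative fits). Its relative Ppargc1a, which coactivates PPARα, had 20.5, 24.0 and 35.5 FPKM with ivabradine and 23.3, 26.2 and 16.7 FPKM with lidocaine, against 12.5, 10.1 and 10.2 FPKM in controls. Both groups were above all controls and spread widely within themselves. The changes were 1.18 ± 0.16, adjusted p = 8.3e-05 for ivabradine and 0.93 ± 0.16, adjusted p = 0.00034 for lidocaine, the same drugs with the highest Ppara. With metoprolol Ppargc1a was higher by 0.62 ± 0.16, adjusted p = 0.008, and with isoproterenol, at 16.6, 12.5 and 14.2 FPKM, it was not called (0.37 ± 0.16).

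**Figure D5:**
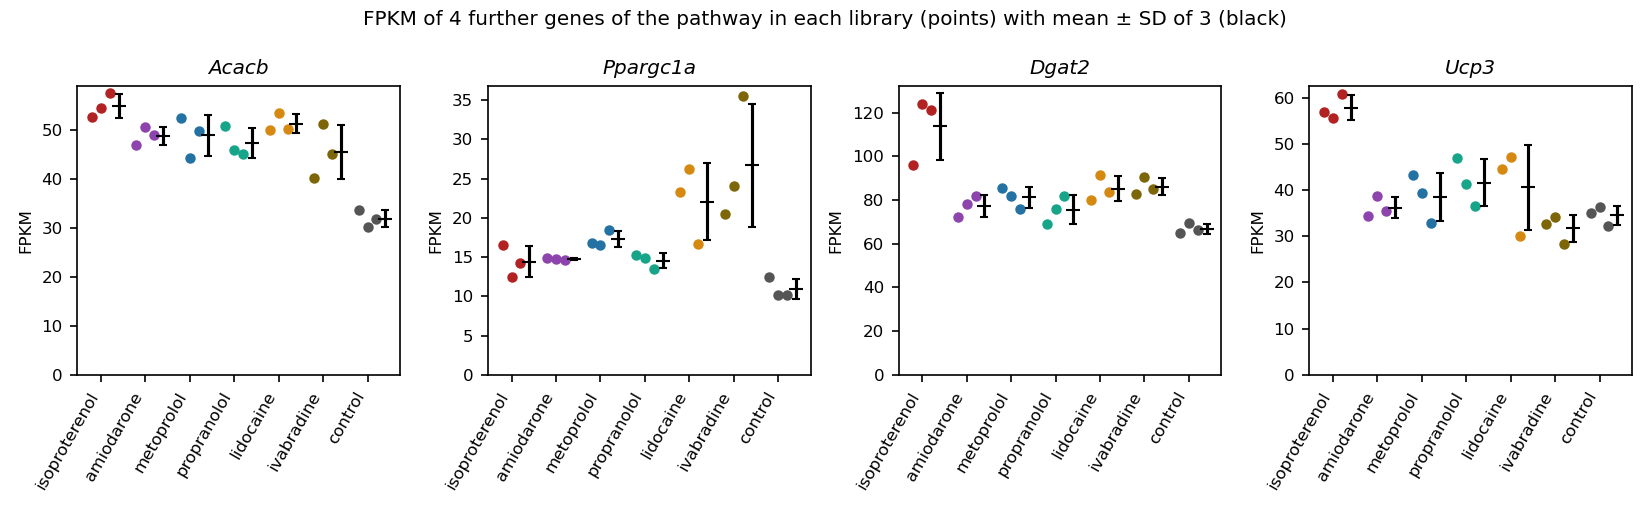
Points are single libraries in FPKM for 4 genes outside the 32, with black marks for mean ± SD of 3. Acacb is above control in all drug groups, Dgat2 and Ucp3 stand highest with isoproterenol, and Ppargc1a is highest and most scattered with ivabradine and lidocaine.

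With the anti-arrhythmic drugs, Pparg, the receptor of fat cells, was lower than in controls with each of the 5. The log2 changes were -0.39 with amiodarone, -0.32 with metoprolol, -0.39 with propranolol, -0.45 with lidocaine and -0.43 with ivabradine. With isoproterenol it was -0.28 ± 0.09, a call lost in 4 alternative fits. Esrrg, an estrogen-related receptor that drives oxidative genes after birth, was higher with each of them, by 0.43, 0.42, 0.33, 0.41 and 0.38 in that order, with the propranolol call lost in 6 alternative fits. Without the 4 libraries the amiodarone, metoprolol and propranolol calls of Pparg and the amiodarone call of Esrrg were also lost. Plin4, a droplet coat gene, rose with lidocaine (0.57 ± 0.07, adjusted p = 1.6e-05) and ivabradine (0.70 ± 0.07, adjusted p = 3.8e-06). All 18 drug libraries were above the controls for Plin4, the lowest at 23.94 FPKM and the highest control at 23.88 FPKM. Metoprolol had 26.5, 26.1 and 27.9 FPKM and propranolol 24.8, 29.1 and 27.9 FPKM. Angptl4, a secreted inhibitor of LPL, had 34.1, 37.2 and 31.2 FPKM with ivabradine and 68.2, 80.9 and 70.3 FPKM in controls (-1.08 ± 0.14, adjusted p = 7.4e-05), where Lpl itself was called higher. Ivabradine libraries were all far under the controls. Pdk4, the kinase that shuts off glucose oxidation when fatty acids are used, was higher with lidocaine (0.92 ± 0.18, adjusted p = 0.00092). The change with propranolol was nearly as large, at 0.85. Pdk4 had 208, 256 and 159 FPKM with lidocaine, 193, 242 and 157 FPKM with propranolol and 148, 167 and 159 FPKM with metoprolol. Controls had 109.6, 119 and 95.1 FPKM, below all of these libraries, while the libraries of the other drugs overlapped the controls.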

How the data were processed

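RNA of 21 heart apex samples, 3 per group, was sequenced as bulk libraries on BGISEQ-500, per the labels. The deposited values are FPKM per gene, made by the authors, and the submitters' processing notes list mm9 as the build and HISAT and Bowtie2 2.2.5 as tools. The labels name both oligo dT selection and rRNA depletion without saying which was used. FPKM keeps no absolute depth, and a few abundant genes can lower all others, which is why rescaled and centred fits were also made.

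The 12433 genes that reached 1 FPKM in 3 or more libraries were tested as log2(FPKM + 1) with limma 3.58.1 in R 4.3.3, with 1 mean per group, all 21 libraries, a mean-variance trend and Benjamini-Hochberg adjustment over all genes (threshold 0.05). Changes on this scale understate those of low genes. Exact permutation tests used scipy 1.17.1 in Python 3.11.15. The steps were tested on simulated data. The alternatives tried were no filter, a filter of 5 FPKM, a pseudocount of 0.1, median-of-ratios rescaling, centring on cardiomyocyte markers, only the groups compared, robust empirical Bayes, the replicate number as a block, a Y-linked covariate, leaving out each library, and leaving out 4 libraries with high markers of other tissues.

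The members and all lists were chosen with earlier results of these data known. Values in every library are given for the member of smallest F-test p of each step, the 4 of smallest p with isoproterenol, the largest called change with each other drug, and members called against the median. Of the other pathway genes, those among the 3 of smallest p of a list in a comparison are named. Not tested, being too low, were Elovl6, Acsl6, Bdh1, Abcd2, Klf5 and Slc27a6. Sequences and starts are from RefSeq on GRCm38.p6.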

Additional observations from a re-analysis of the deposited data

How the results depend on the processing

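Of 109 called changes of the 32 genes, 61 lost the call under at least 1 alternative, and none of 1912 alternative values had the opposite sign. Of the other pathway genes, only those among the 3 of smallest p of a list in a comparison were followed in this way. Of their 139 called changes, 75 lost the call somewhere, and none of 2383 alternative values had the opposite sign. Called changes of the remaining pathway genes were left out of this count. The causes were not tested. Depth is unknown, and groups of 3 limit what can be told apart. Shares of all genes called were computed for the main, rescaled and centred fits only, so the other counts below stand without them.

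Rescaling gave 18 higher with propranolol and 20 with ivabradine, and 0 lower with amiodarone, metoprolol, propranolol and lidocaine. Centring on cardiomyocyte markers gave 6 higher with amiodarone, 8 with metoprolol, 2 with propranolol, 9 with lidocaine and 5 with ivabradine, and 4, 5, 4, 10, 4 and 6 lower with isoproterenol, amiodarone, metoprolol, propranolol, lidocaine and ivabradine. Without the 4 libraries the counts higher were 5 with amiodarone, 10 with metoprolol, 2 with propranolol, 11 with lidocaine and 6 for isoproterenol against the anti-arrhythmic drugs, 0 were lower with propranolol, and 11 differed among all groups and 0 among the anti-arrhythmic ones. With only the groups compared, 8 were higher with amiodarone, 4 with ivabradine, 1 lower with propranolol, and 0 differed among the anti-arrhythmic groups. With no filter 1 was lower with propranolol and 0 differed among the anti-arrhythmic groups. With the Y-linked covariate 2 were lower with amiodarone and 0 differed among the anti-arrhythmic groups.

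Same-numbered libraries did not deviate together (correlations of residuals of -0.54 to 0.29 over 63 pairs), so the numbers were not taken as pairing. With the replicate block the counts higher were 21, 12, 16, 8, 18 and 12 in the order of drugs above and 13 against the anti-arrhythmic drugs, with 1 lower for propranolol, 24 among all groups and 0 among the anti-arrhythmic ones.

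Leaving out each library in turn gave 15 to 23 higher with isoproterenol, 8 to 14 with amiodarone, 8 to 16 with metoprolol, 4 to 12 with propranolol, 12 to 19 with lidocaine and 10 to 14 with ivabradine. Lower were 0 with isoproterenol, 1 with amiodarone, 0 to 2 with metoprolol, 0 to 2 with propranolol, 1 with lidocaine and 0 to 3 with ivabradine. For isoproterenol against the anti-arrhythmic drugs the counts were 10 to 15 higher and 0 to 1 lower, 18 to 28 differed among all groups, and 0 to 1 among the anti-arrhythmic ones.

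The change in the log2 difference of Cpt1b and Cpt1a ran from -0.0312 to 0.131 with isoproterenol, -0.155 to 0.00757 with amiodarone, -0.16 to 0.0026 with metoprolol, -0.124 to 0.0387 with propranolol, -0.21 to -0.0473 with lidocaine and -0.0634 to 0.147 with ivabradine. Without propranolol 1 it was 0.0256 for propranolol, and without control 3 it was -0.0157 for ivabradine. Without the 4 libraries it was -0.017 with isoproterenol and -0.0157 with ivabradine.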
